A study of Capra hircus with 9 samples.

Results

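The miR-17-92 cluster and its paralogs, miR-106a-363 and miR-106b-25, were followed through the submandibular gland of female Lubo goats at 3 ages. The miRNAs of these clusters were taken by number: every mature entry of the deposited table of miR-17, miR-18, miR-19, miR-20, miR-25, miR-92, miR-93, miR-106 or miR-363 was included, with any letter, arm or ending, and candidates without a family name were left out. This gave 44 entries of 2189 in the table, of which 25 carry goat names (prefix chi-) and 19 carry names without a species, ending in -x, -y or -z. Small RNA of 9 healthy goats was sequenced, 3 goats at each of 1 month, 12 months and 24 months. Each library came from a separate goat, all goats were kept alike, and the groups carry no treatment or altered gene. Libraries are named by age and by the replicate number of their label, which is 1, 2 and 3 at 1 month, then 3, 4 and 5 at 12 months and finally 2, 3 and 5 at 24 months. Library totals ran from 8288492 to 13277448 counts. The 1-month library 2 stood apart, with 12.7% of its counts on leukocyte miRNAs and 1.41% on gland miRNAs, so main results are given with and without it. The tissue is a bulk sample, so fewer cells of a type and less RNA per cell cannot be told apart.

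As background, the hairpins of a cluster are cut from a shared primary transcript. The miR-17-92 transcript is known to be switched on by MYC and E2F factors in dividing cells, to be required for early B cell development, and to lower BIM and CDKN1A. Its paralogs arose by duplication of the same ancestral cluster, and miR-106b-25 lies in an intron of MCM7, a gene for a subunit of the replicative helicase. Target choice rests mainly on the seed, bases 2 to 8 from the 5′ end. The guides of the 3 clusters carry 4 seeds between them, and not every cluster carries each.

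In RefSeq's goat assembly ARS1.2, MIR92A, MIR19B, MIR20A, MIR19A, MIR18A and MIR17 are neighbours on chromosome 12. MIR106B, MIR93 and MIR25 are neighbours on chromosome 25, inside MCM7. MIR363, MIR92B, MIR20B, MIR18B and MIR106A are neighbours on an unplaced scaffold. These neighbours, and for the names without a species the closest goat-named sequence, put 16 entries in miR-17-92, 11 in miR-106a-363 and 11 in miR-106b-25, and left 6 unassigned. Which build and miRNA database lie behind the deposited counts is not given in the sources used here, so no coordinates are printed.

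The deposited sequences of the goat-named entries that carry the 4 seeds are given first, since the results are ordered by seed. They are written 5′ to 3′ as DNA letters, with bases 2 to 8 in capitals. The first set carries the seed of the miR-17 family, AAAGTGC, and comes from all 3 clusters.
chi-miR-17-5p: cAAAGTGCttacagtgcaggtagt
chi-miR-20a-5p: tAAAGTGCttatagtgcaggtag
chi-miR-106a-5p: aAAAGTGCttacagtgcaggtagc
chi-miR-20b: cAAAGTGCtcacagtgcaggtag
chi-miR-106b-5p: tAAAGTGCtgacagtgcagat
chi-miR-93-5p: cAAAGTGCtgttcgtgcaggtag

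The next set carries the miR-18 seed. The entry miR-18-x is shown beside them because it had the largest fitted change among the tested entries of these clusters.
chi-miR-18a-5p: tAAGGTGCatctagtgcagatag
chi-miR-18b-5p: tAAGGTGCatctagtgcag
miR-18-x: tAAGGTGCatctagtgcagttag

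Both goat-named entries with the miR-19 seed were assigned to miR-17-92 by their RefSeq neighbours. Mammals also have a miR-19b hairpin in miR-106a-363.
chi-miR-19a: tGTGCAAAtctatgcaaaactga
chi-miR-19b-3p: tGTGCAAAtccatgcaaaactga

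The last set carries the miR-92 seed on 3p arms of all 3 clusters. The entry chi-miR-92b has the same sequence as chi-miR-92a-3p, and miR-363-y is added to show a start moved by 1 base.
chi-miR-92a-3p: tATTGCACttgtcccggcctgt
chi-miR-25-3p: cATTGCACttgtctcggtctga
chi-miR-363-3p: aATTGCACggtatccatctgcg
miR-363-y: aTTGCACGgtatccatctgcgtt

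Counted from 1 at the 5′ end, with the base of the entry named first written before the position, chi-miR-17-5p and chi-miR-106a-5p differ by C1A and T24C. From chi-miR-17-5p to chi-miR-20b the change is T10C, and to chi-miR-20a-5p the changes are C1T and C12T. chi-miR-19a and chi-miR-19b-3p differ by T11C alone. From chi-miR-92a-3p to chi-miR-25-3p the changes are T1C, C14T, C18T and T22A. None of these lies in bases 2 to 8. Copies this alike can share reads, and how such reads were assigned is not given in the sources used here.

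By seed, the 44 entries hold 10 of the miR-17 family, 3 of miR-18, 2 of miR-19 and 6 of miR-92. The other 23 carry none of the 4 seeds: they are opposite arms of the same hairpins, start at another base or, as miR-19-y does, differ inside the seed. Of the 19 entries without a species in the name, 8 start at the same base as a goat-named entry and match it without a mismatch. These 8 run longer at the 3′ end. A different start was assigned to 4, but among them miR-92-x had 9 mismatches to its closest goat-named entry, so its start cannot be placed. The longer forms include miR-92-y of chi-miR-92a-3p, miR-25-y of chi-miR-25-3p and miR-106-x of chi-miR-106b-5p.

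The clusters took a larger part of the small RNA in the young gland. Their 44 entries held 2.88%, 7.07% and 2.19% of the counts in 1-month libraries 1, 2 and 3. In 12-month libraries 3, 4 and 5 they held 0.874%, 0.739% and 0.818%, and in 24-month libraries 2, 3 and 5 they held 0.712%, 0.735% and 0.719%. Every 1-month library lay above every later library, and 1-month library 2 stood far above the other libraries of its age. The mean share was 4.04% ± 2.64 (SD, n = 3) at 1 month, 0.810% ± 0.0681 at 12 months and 0.722% ± 0.0122 at 24 months. For single libraries the Wilson 95% interval was narrow, for example 2.19% with bounds of 2.18% and 2.20% in 1-month library 3, and it covers counting error only. No test was made of this sum.

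**Figure D1:**
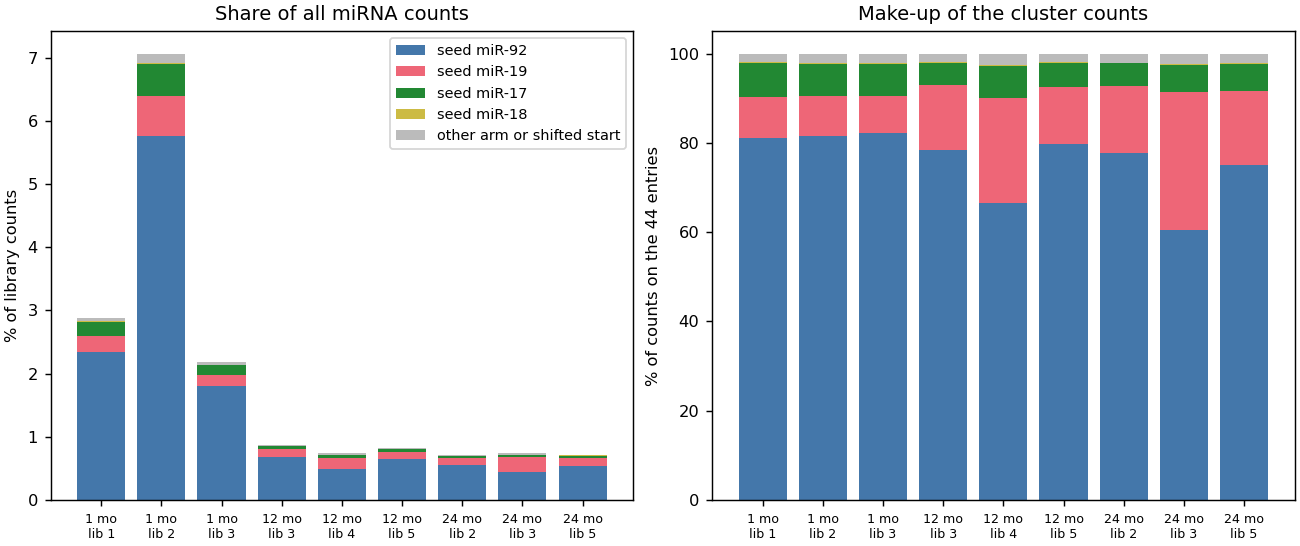
Bars show, for each of the 9 libraries, the counts on the 44 entries split by seed, as a percentage of the library (left) and of the counts on the 44 entries (right). The 1-month bars on the left reach 2.88%, 7.07% and 2.19%, all above the later bars, and on the right the miR-19 part is larger at 12 and 24 months.

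The entries assigned to each cluster took part in this. The miR-17-92 entries held 1.28%, 3.14% and 0.952% of the counts in 1-month libraries 1, 2 and 3, and between 0.335% and 0.438% in the 6 later libraries. The miR-106a-363 entries held 0.818%, 1.95% and 0.607% at 1 month and between 0.142% and 0.224% later. The miR-106b-25 entries held 0.778%, 1.96% and 0.627% at 1 month and between 0.165% and 0.224% later. In each cluster the 1-month libraries lay above all later ones. The shares of miR-17-92 and miR-106a-363 depend on how reads of the sequence shared by chi-miR-92a-3p and chi-miR-92b were divided. They also depend on chi-miR-19b-3p, all of whose counts were placed in miR-17-92. Most miR-106a-363 counts were on chi-miR-92b, with 72953, 222145 and 63153 in 1-month libraries 1, 2 and 3. The next entry of that cluster, chi-miR-363-3p, had 9224, 30204 and 6223. The share of miR-106a-363 is thus mostly that of a sequence which cannot be told from chi-miR-92a-3p, and does not show that cluster on its own.

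Tests were run on the whole table with edgeR's quasi-likelihood test, on 937 entries that passed its filter on low counts, with Benjamini-Hochberg adjustment over all 937 and a threshold of 0.05. Of the 44 entries, 34 passed that filter and 10 did not. Of those 34, 28 reached the filter's level of 0.968 CPM (counts scaled to a common library total) in at least 3 of the 6 later libraries, and the other 6 (miR-18-x, miR-20-y, chi-miR-18b-5p, miR-20-x, miR-93-x and chi-miR-18a-3p) passed through the 1-month libraries, so they had to differ and their adjusted p-values support nothing. Levels below are CPM on TMM-scaled library totals, and the error after a log2 fold change is the standard error of the fit.

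Between 1 and 12 months, 29 of the 34 tested entries fell and 0 rose. Over all 937 tested entries 19.2% were called in this comparison, 13.2% lower and 5.98% higher. The ages did not overlap for 28 of the 34, beside 48.5% of all tested entries. The median log2 fold change of the 34 was -2.47, beside -0.02 over all tested entries, and single values ran from -6.02 for miR-18-x to -1.11 for chi-miR-19b-3p. Among the 28 entries that also reached the filter's level in later libraries, 23 were called lower. The median log2 fold change of these 28 was -2.31. The counts and the median over the 34 include the entries that had to differ. The 5 entries not called were chi-miR-19b-3p, chi-miR-20a-3p, miR-106-x, miR-19-y and miR-19-z.

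Without 12-month library 4, 12 entries were called lower, with 38 tested, and the median log2 fold change was -2.90. Without 1-month library 2, 26 were called and the median log2 fold change was -1.50. Both counts include miR-18-x and chi-miR-18b-5p, which had to differ.

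Between 1 and 24 months the same 1-month libraries serve as the reference, so this comparison does not repeat the first. Here too 29 of 34 fell and 0 rose, beside 26.3% of all tested entries called, 17.5% lower and 8.75% higher. The same 5 entries were not called. Among the 28 entries that also reached the filter's level in later libraries, 23 were called lower at 24 months. Ages did not overlap for 29 of the 34, beside 47.2% of all tested entries. The median log2 fold change of the 34 was -2.53, beside -0.06 over all tested entries, and that of the 28 was -2.46. The counts and the median over the 34 include the entries that had to differ. Without 24-month library 3, 20 were called lower, and without 1-month library 2, 25 were called with a median of -1.61. When any difference between the 3 ages was tested, 29 of 34 passed, beside 20.5% of all tested entries. Those 29 include miR-18-x, miR-20-y, chi-miR-18b-5p, miR-20-x, miR-93-x and chi-miR-18a-3p, which had to differ and whose p-values support nothing.

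Between 12 and 24 months no difference was detectable with 3 goats per age. By edgeR, 0 of the 34 entries passed and 0% of all tested entries did. An unadjusted p under 0.05 was reached by 0 of the 34 and by 4.27% of all tested entries, and DESeq2 and limma voom also called 0 of the 34. Log2 fold changes ran from -0.70 for miR-93-x to 1.04 for miR-19-y, with a median of -0.02. Only miR-363-y had ages that did not overlap, 1 entry of 34 beside 9.82% of all tested entries, at 4.76, 4.91 and 6.38 CPM at 12 months and 7.61, 7.73 and 7.83 CPM at 24 months.

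**Figure D2:**
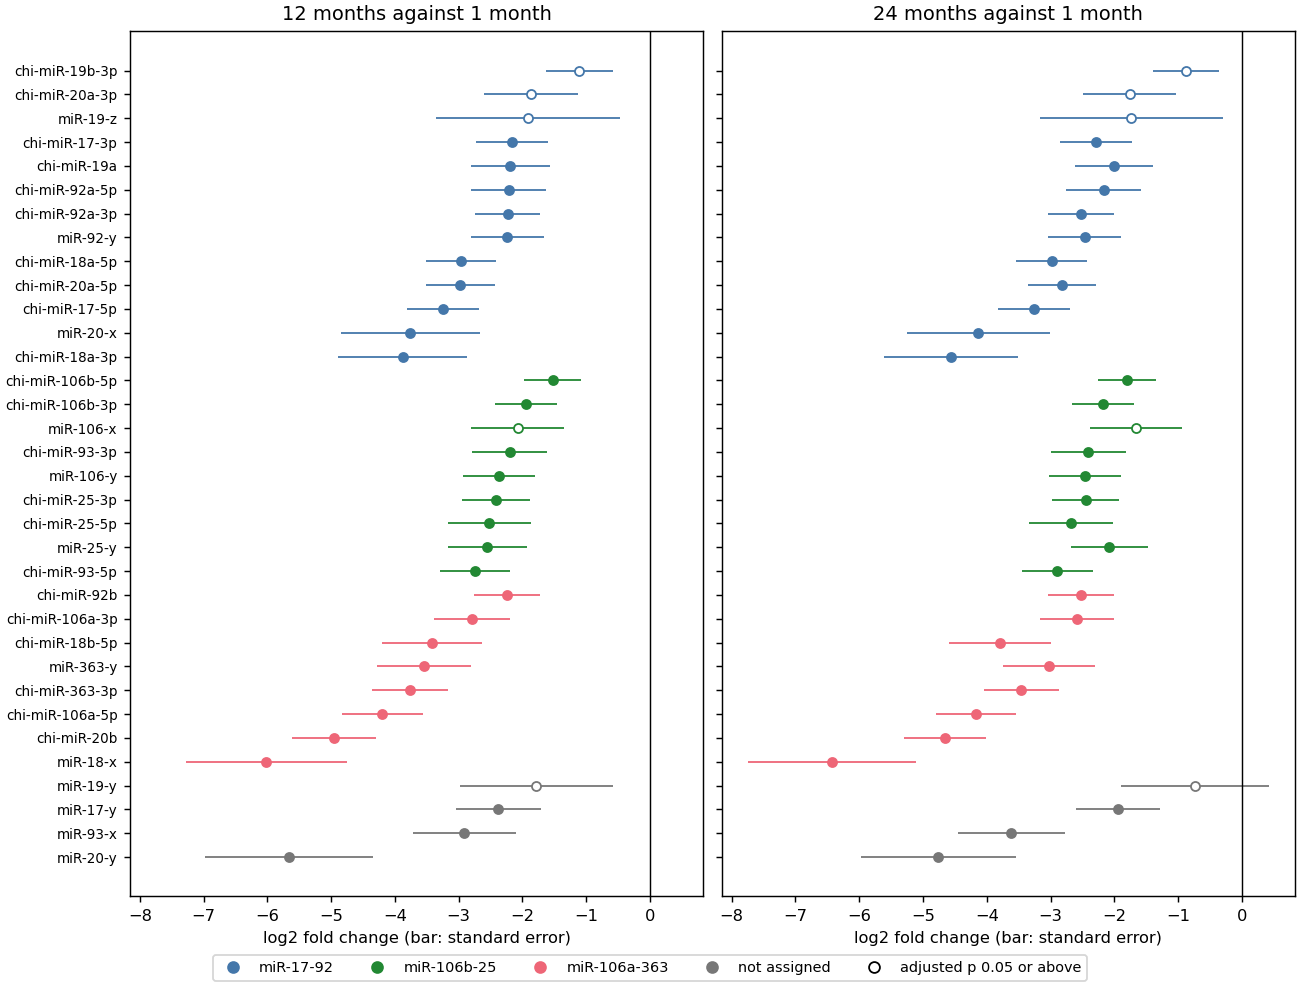
Points give the log2 fold change of the 34 tested entries, with bars of 1 standard error, for 12 months against 1 month (left) and 24 months against 1 month (right), which share the 1-month libraries. Colours mark the cluster and open points did not pass the threshold. All points lie below 0, and they reach -6.02 on the left and -6.43 on the right for miR-18-x.

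The miR-92 seed carried most of the counts on these clusters, with 81.1%, 81.5% and 82.2% of them in the 1-month goats, 66.5% to 79.7% in the 12-month goats and 60.6% to 77.8% in the 24-month goats. miR-92a is known for acting on endothelial growth and integrin genes as well as on BIM. Its guide strand chi-miR-92a-3p stood at 6503, 19379 and 4883 CPM in 1-month libraries 1, 2 and 3, at 2571, 1526 and 2443 in 12-month libraries 3, 4 and 5, and at 2023, 1485 and 1844 in 24-month libraries 2, 3 and 5. The ages do not overlap between 1 month and either later age, while the 12-month and 24-month values do. The log2 fold change was -2.23 ± 0.51 at 12 months (edgeR adjusted p = 0.0138) and -2.52 ± 0.52 at 24 months (adjusted p = 0.00779).

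The entry chi-miR-92b has the same sequence and cannot be read apart from it. It stood at 5973, 17673 and 4459 CPM in the 1-month goats, 2303, 1381 and 2249.8 in the 12-month goats and 1837, 1361 and 1668 in the 24-month goats. Its count was 0.896 to 0.921 of that of chi-miR-92a-3p in each of the 9 libraries. The 2-base longer form miR-92-y stood at 1139, 4131 and 766 CPM at 1 month, then 537, 383 and 359.8 at 12 months and finally 361, 386 and 345 at 24 months. In both entries every 1-month value lay above every later one. Their log2 fold changes at 12 months were -2.24 ± 0.51 for chi-miR-92b (edgeR adjusted p = 0.0137) and -2.24 ± 0.57 for miR-92-y (adjusted p = 0.0213).

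The miR-92-type guide of the MCM7 intron, chi-miR-25-3p, stood at 5333, 17013 and 4182 CPM in 1-month libraries 1, 2 and 3. It stood at 1812, 1269 and 1884 CPM in 12-month libraries 3, 4 and 5, and at 1429.7, 1339.9 and 2078 CPM in 24-month libraries 2, 3 and 5. Again 1 month lay above both later ages, which overlap with each other. Its log2 fold change was -2.42 ± 0.53 at 12 months (edgeR adjusted p = 0.0115) and -2.45 ± 0.53 at 24 months (adjusted p = 0.00921).

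All 4 of these calls at 12 months were lost without 12-month library 4, with edgeR adjusted p-values of 0.0635 for chi-miR-92a-3p and for chi-miR-92b, 0.0559 for chi-miR-25-3p and 0.0767 for miR-92-y. The log2 fold changes without that library were -2.01, -2.02, -2.23 and -2.14 in the same order. The calls held at smaller sizes without 1-month library 2, with log2 fold changes of -1.41, -1.42, -1.55 and -1.18 in that order.

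The miR-92-type member of the third cluster, chi-miR-363-3p, is given by library although the naming rule did not select it, and was chosen after its values were seen. It stood at 755, 2403 and 439 CPM in the 1-month goats, 72.5, 84.8 and 107 in the 12-month goats and 100.1, 117 and 110.2 in the 24-month goats. The lowest 1-month value is 3.77 times the highest later value, beside 1.90 times for chi-miR-92a-3p and 2.01 times for chi-miR-25-3p. Its log2 fold change was -3.77 ± 0.60 at 12 months (edgeR adjusted p = 0.00250) and -3.46 ± 0.59 at 24 months (adjusted p = 0.00341), and it was -2.78 and -2.47 without 1-month library 2. The form that starts 1 base later, miR-363-y, carries another seed and had log2 fold changes of -3.54 ± 0.74 and -3.02 ± 0.72 at the same ages (edgeR adjusted p = 0.00907 and 0.0145). Its 24-month call was lost without 24-month library 3 (adjusted p = 0.0511).

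**Figure D3:**
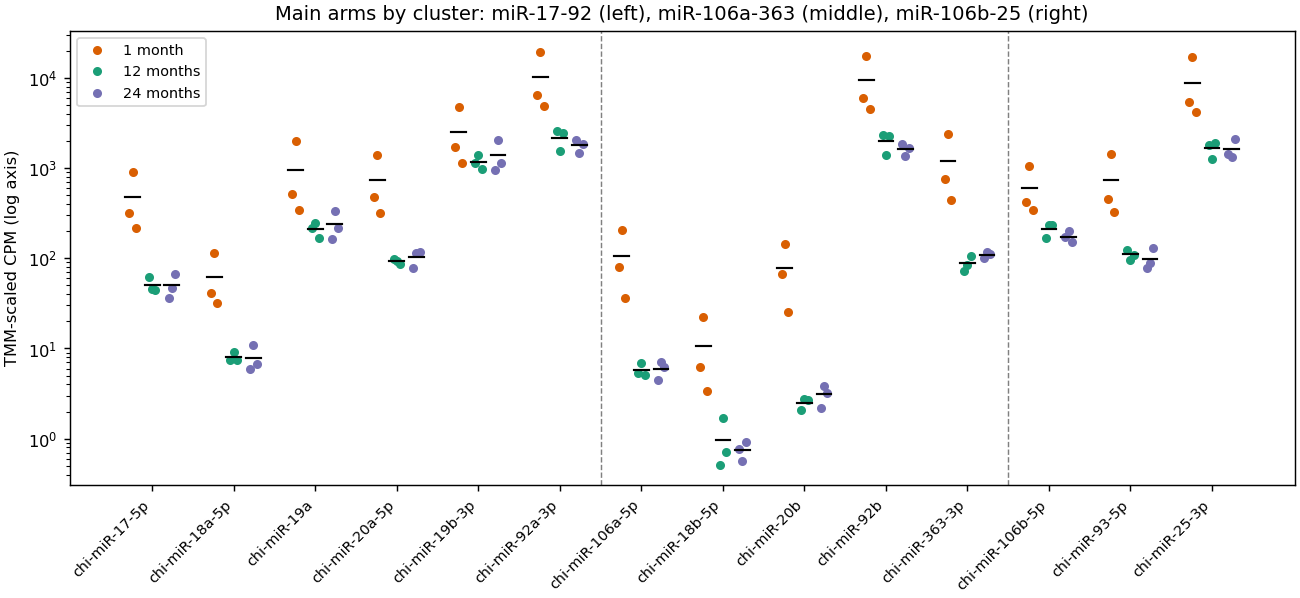
Points give TMM-scaled CPM on a log axis for the goat-named main arms, with 1 point per library coloured by age, and the clusters miR-17-92, miR-106a-363 and miR-106b-25 from left to right. Every 1-month point of chi-miR-20b lies above 25, and no later point of it reaches 4, while the ages of chi-miR-19b-3p overlap.

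The miR-17 family is the one most often tied to the passage from G1 to S phase, through CDKN1A and E2F1. Its 10 entries held 7.05% to 7.59% of the counts on these clusters at 1 month and 4.99% to 7.05% later. Of the 9 tested, 8 fell by 12 months, beside 13.2% of all tested entries. Among the 7 that reached the filter's level in at least 3 later libraries, 6 fell, with a median log2 fold change of -2.97.

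The 5p arm that names the cluster, chi-miR-17-5p, stood at 319, 903 and 215 CPM in 1-month libraries 1, 2 and 3. It stood at 61.8, 45.1 and 44.1 CPM in 12-month libraries 3, 4 and 5, and at 36.3, 46.4 and 67.5 CPM in 24-month libraries 2, 3 and 5. The lowest 1-month value is well above the highest later value. Its log2 fold change was -3.25 ± 0.56 at 12 months (edgeR adjusted p = 0.00408) and -3.26 ± 0.56 at 24 months (adjusted p = 0.00353), and -2.43 at both ages without 1-month library 2.

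Its neighbour in the same transcript, chi-miR-20a-5p, stood at 484, 1393 and 318 CPM at 1 month, then 99.0, 93.1 and 87.0 at 12 months and finally 78.4, 116 and 118 at 24 months. The 12-month goats were close to each other and lay far below each 1-month goat. Its log2 fold change was -2.97 ± 0.54 at 12 months (edgeR adjusted p = 0.00490) and -2.82 ± 0.53 at 24 months (adjusted p = 0.00541). These were -2.13 and -1.97 without 1-month library 2.

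The miR-106b-25 cluster gave 2 entries of this family with different sizes of change. The values of chi-miR-93-5p were 458, 1435 and 325 CPM in the 1-month goats, 125, 96.4 and 109 in the 12-month goats and 78.9, 88.0 and 131 in the 24-month goats. Those of chi-miR-106b-5p were 417, 1058 and 341 CPM at 1 month, then 166, 233 and 232 at 12 months and finally 173, 198 and 151 at 24 months. In both, 1 month lay above the later ages, with a narrower gap for chi-miR-106b-5p. Log2 fold changes at 12 months were -2.75 ± 0.55 for chi-miR-93-5p (edgeR adjusted p = 0.00749) and -1.53 ± 0.45 for chi-miR-106b-5p (adjusted p = 0.0369). At 24 months they were -2.90 ± 0.55 and -1.80 ± 0.45 (edgeR adjusted p = 0.00572 and 0.0173). The call of chi-miR-106b-5p at 12 months was lost without 12-month library 3 or 4 (adjusted p = 0.0645 and 0.0926). Without 1-month library 2 the log2 fold changes at 12 months were -1.85 and -0.87.

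The miR-106a-363 entries of the family showed the largest falls among those with counts in every library. Both are outside the naming rule and were chosen after their values were seen. The values of chi-miR-106a-5p were 79.5, 204 and 36.1 CPM in the 1-month goats, 5.41, 6.93 and 5.03 in the 12-month goats and 4.43, 7.05 and 6.22 in the 24-month goats. Those of chi-miR-20b were 66.5, 143.4 and 25.6 CPM at 1 month, then 2.06, 2.77 and 2.69 at 12 months and finally 2.22, 3.87 and 3.22 at 24 months. No later library came near a 1-month library for either entry. Log2 fold changes at 12 months were -4.20 ± 0.63 for chi-miR-106a-5p (edgeR adjusted p = 0.00196) and -4.96 ± 0.65 for chi-miR-20b (adjusted p = 0.00136). At 24 months they were -4.17 ± 0.63 and -4.66 ± 0.64 (edgeR adjusted p = 0.00192 and 0.00146). At 12 months they were -3.33 and -4.20 without 1-month library 2.

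The entries miR-106-x, miR-20-x, miR-93-x and miR-17-x are the variants of this family without a species in the name. The first, the longer form of chi-miR-106b-5p, was not called at 12 months (log2 fold change -2.07 ± 0.73, edgeR adjusted p = 0.0626), and its ages overlapped, with 10.1 CPM in 1-month library 3 and 13.4 CPM in 12-month library 4. The calls of miR-20-x and miR-93-x at 12 months were lost without 1-month library 2 (adjusted p = 0.166 and 0.0846), both also without 12-month library 3 or 5, and that of miR-20-x without 12-month library 4. The last was not tested, with 189 counts in the 1-month goats, 2 in the 12-month goats and 8 in the 24-month goats.

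The miR-18 family differs from the miR-17 family by 1 base of the seed. Its guide chi-miR-18a-5p stood at 41.4, 114 and 31.6 CPM in 1-month libraries 1, 2 and 3, at 7.47, 9.17 and 7.36 in 12-month libraries 3, 4 and 5, and at 5.88, 11.0 and 6.68 in 24-month libraries 2, 3 and 5. The paralog chi-miR-18b-5p stood at 6.30, 22.2 and 3.39 CPM at 1 month, then 0.515, 1.71 and 0.718 at 12 months and finally 0.771, 0.569 and 0.921 at 24 months. In both, the 1-month libraries lay above all later ones. The 19 deposited bases of chi-miR-18b-5p are the first 19 of chi-miR-18a-5p, so a read of those 19 bases matches both. No p-value is given for chi-miR-18b-5p, which passed the filter through the 1-month libraries. Log2 fold changes at 12 months were -2.96 ± 0.55 for chi-miR-18a-5p (edgeR adjusted p = 0.00497) and -3.42 ± 0.78 for chi-miR-18b-5p. At 24 months they were -2.99 ± 0.55 (edgeR adjusted p = 0.00467) and -3.80 ± 0.80. Without 1-month library 2 the 12-month values were -2.21 and -2.30.

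The full-length entry miR-18-x differs from chi-miR-18a-5p by A20T and begins with all of chi-miR-18b-5p. It stood at 4.26, 15.2 and 2.47 CPM in the 1-month libraries, at 0, 0 and 0.269 at 12 months, and at 0, 0 and 0.230 at 24 months. It was thus almost absent from the counts of the later goats. Pooled over libraries there were 278 counts in the 1-month goats, 3 in the 12-month goats and 2 in the 24-month goats. Relative to library totals, the 1-month level was 76.9 times that at 12 months, with an exact 95% interval of 26.0 to 375.2, and 118 times that at 24 months, with an interval of 32.3 to 978. These intervals cover counting error only. The fitted log2 fold changes were -6.02 and -6.43, and depend on the prior count since later libraries are at or near 0. They are a description with no test, since the entry was named for its large change and passed the filter through the 1-month libraries alone. Taken as a share of the counts on both 18b-5p forms, miR-18-x made up 40.3%, 40.6% and 42.2% in the 1-month libraries. In the later libraries that share was 0% in 4 of 6, from totals of only 4 to 16 counts.

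The miR-19 family is known as the part of the cluster that drives lymphoma growth in mice. Its guide chi-miR-19b-3p stood at 1724, 4730.0 and 1148 CPM in 1-month libraries 1, 2 and 3, at 1140.4, 1410.4 and 972 in 12-month libraries 3, 4 and 5, and at 945, 2061 and 1132 in 24-month libraries 2, 3 and 5. Here the ages overlap, and 24-month library 3 lies above 1-month libraries 1 and 3. The log2 fold change was -1.11 ± 0.52 at 12 months (edgeR adjusted p = 0.138) and -0.88 ± 0.52 at 24 months (adjusted p = 0.224), and -0.31 and -0.08 without 1-month library 2. This was the smallest change at 12 months among the 34 tested entries.

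The other miR-19, chi-miR-19a, stood at 518, 2014 and 341 CPM at 1 month, then 216.2, 246 and 166 at 12 months and finally 165, 338 and 214.3 at 24 months. The ages separate, but 1-month library 3 is only 1.011 times 24-month library 3. The log2 fold change was -2.19 ± 0.62 at 12 months (edgeR adjusted p = 0.0319) and -2.003 ± 0.62 at 24 months (adjusted p = 0.0372). The 12-month call was lost without 12-month library 3, 4 or 5 (adjusted p = 0.0507, 0.0784 and 0.0516). The 24-month call was lost without 24-month library 3 (adjusted p = 0.0551), 24-month library 2 or 5 (adjusted p = 0.08995 and 0.0808), or 1-month library 2, where the log2 fold change was -0.87 (adjusted p = 0.0829).

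Within the counts on these clusters, the miR-19 seed made up a larger share in the later goats. It held 9.19%, 9.04% and 8.29% of those counts in 1-month libraries 1, 2 and 3, then 14.5%, 23.6% and 12.8% in 12-month libraries 3, 4 and 5, and 14.98%, 30.8% and 16.6% in 24-month libraries 2, 3 and 5. Each later library is above each 1-month library. No test was made of this share.

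Entries with names miR-19-y and miR-19-z behaved unlike the rest. The first differs from chi-miR-19b-3p by T1G and G4C, and the second starts 1 base earlier than chi-miR-19a. The level of miR-19-y was 4.09, 39.5 and 2.97 CPM in the 1-month goats, 1.29, 9.60 and 2.60 in the 12-month goats and 0.964, 18.9 and 8.06 in the 24-month goats. The level of miR-19-z was 1.39, 30.7 and 0.777 CPM at 1 month, then 1.16, 6.72 and 0.808 at 12 months and finally 0.193, 7.16 and 2.53 at 24 months. At each age 1 library stands high for both, namely 1-month library 2, 12-month library 4 and 24-month library 3. Those libraries also have the highest share of counts under names without a species at their age (33.2%, 20.1% and 19.4%) and the longest mean length of the counted sequences (22.0, 21.9 and 21.9 bases), and the part of these in the result was not tested. Without 1-month library 2 the direction turned, to log2 fold changes of 0.33 for miR-19-y and 1.39 for miR-19-z at 12 months (edgeR adjusted p = 0.843 and 0.465).

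The other variants that passed the filter carry no goat name either. The 2-base longer forms miR-25-y and miR-106-y, of chi-miR-25-3p and chi-miR-106b-3p, had log2 fold changes of -2.55 ± 0.62 and -2.37 ± 0.56 at 12 months (edgeR adjusted p = 0.0171 and 0.0157), and both calls were lost without 12-month library 4 (adjusted p = 0.0567 and 0.0643). For miR-17-y, which differs from chi-miR-17-3p by A1C and C23A, the value was -2.38 ± 0.67 (adjusted p = 0.0315), and it was -1.26 and not called without 1-month library 2 (adjusted p = 0.0664), nor without 12-month library 3, 4 or 5. Without 1-month library 2 the 12-month values of miR-25-y and miR-106-y were -1.54 and -1.46. The 24-month call of miR-25-y was lost without that library (edgeR adjusted p = 0.0610). The entry miR-20-y, assigned to no cluster, had 154 counts in the 1-month goats, 2 in the 12-month goats and 4 in the 24-month goats. Relative to library totals its 1-month level was 63.9 times that at 12 months, with an exact 95% interval of 17.4 to 532 for counting error. Like miR-18-x it was thus counted almost only in the young goats, and its fitted change at 12 months was not called without 12-month library 4.

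The hairpins' other arms, which carry none of the 4 seeds, moved the same way as the guides. Of the 8 goat-named other arms tested, 7 fell by 12 months, beside 13.2% of all tested entries. Among the 7 is chi-miR-18a-3p, which passed the filter through the 1-month libraries, so its call supports nothing. The level of chi-miR-106b-3p was 170.0, 507 and 158 CPM in the 1-month goats, 85.4, 59.9 and 72.5 in the 12-month goats and 60.7, 51.3 and 72.9 in the 24-month goats. That of chi-miR-17-3p was 102, 358 and 95.7 CPM at 1 month, then 31.5, 48.6 and 44.1 at 12 months and finally 28.2, 54.5 and 30.7 at 24 months. For both, the 1-month libraries lie above the later ones. Log2 fold changes at 12 months were -1.94 ± 0.48 for chi-miR-106b-3p (edgeR adjusted p = 0.0197) and -2.16 ± 0.56 for chi-miR-17-3p (adjusted p = 0.0234). Without 1-month library 2 they were -1.20 and -1.28.

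The other arms of miR-25, miR-93 and miR-92a had lower levels. The level of chi-miR-25-5p was 31.4, 137 and 21.3 CPM in the 1-month goats, 10.9, 13.4 and 8.62 in the 12-month goats and 8.77, 10.6 and 10.2 in the 24-month goats. That of chi-miR-93-3p was 21.3, 71.8 and 18.99 CPM at 1 month, then 8.497, 9.39 and 6.47 at 12 months and finally 10.2, 6.71 and 4.14 at 24 months. That of chi-miR-92a-5p was 13.2, 40.3 and 8.97 CPM in the 1-month goats, 4.12, 5.87 and 3.41 in the 12-month goats and 4.05, 3.53 and 6.33 in the 24-month goats. In each, 1-month library 2 was the highest of the 9 and the other 1-month libraries still lay above the later ones. Their log2 fold changes at 12 months were -2.52 ± 0.65, -2.20 ± 0.58 and -2.22 ± 0.59 (edgeR adjusted p = 0.0228, 0.0256 and 0.0256). Without 1-month library 2 they were -1.28, -1.33 and -1.33.

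The remaining arms were sparse. The level of chi-miR-18a-3p was 3.44, 15.8 and 6.002 CPM at 1 month, then 1.16, 0.213 and 0.359 at 12 months and finally 0.771, 0.227 and 0 at 24 months. That of chi-miR-106a-3p was 6.14, 14.4 and 4.24 CPM in the 1-month goats, 0.772, 1.49 and 1.26 in the 12-month goats and 1.35, 1.59 and 1.15 in the 24-month goats. That of chi-miR-20a-3p was 5.24, 15.4 and 2.89 CPM at 1 month, then 1.93, 3.09 and 1.44 at 12 months and finally 0.771, 3.18 and 2.99 at 24 months. The ages separate for the first and second and overlap for the last, which was not called (log2 fold change -1.86 ± 0.74, edgeR adjusted p = 0.0866). The changes of chi-miR-18a-3p and chi-miR-106a-3p at 12 months were -3.88 ± 1.007 and -2.79 ± 0.59 (edgeR adjusted p = 0.00967 for chi-miR-106a-3p). Without 1-month library 2 they were -3.08 and -2.14. No p-value is given for chi-miR-18a-3p, which passed the filter through the 1-month libraries. Of the 7 calls among these arms, the 6 other than chi-miR-106a-3p were lost without 12-month library 4, and that of chi-miR-18a-3p also without 12-month library 5.

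The arms chi-miR-363-5p, chi-miR-19b-5p and chi-miR-18b-3p did not pass the filter. Pooled over libraries, chi-miR-363-5p had 53 counts in the 1-month goats, 4 in the 12-month goats and 7 in the 24-month goats, and chi-miR-19b-5p had 32, 2 and 9. chi-miR-18b-3p had 36 counts at 1 month and 0 at both later ages. Set against a floor of 3 counts over the group, its share of library counts was at least 9.96-fold lower at 12 months and at least 10.2-fold lower at 24 months. The other 7 untested entries had between 2 counts (miR-363-x) and 189 counts (miR-17-x) at 1 month and at most 14 at either later age.

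By cluster and by seed, medians are given over the entries that reached the filter's level in at least 3 later libraries, since the others had to differ. At 12 months the median log2 fold change was -3.66 over 6 entries of miR-106a-363, all called, -2.22 over 11 of miR-17-92, of which 8 were called, and -2.37 over 9 of miR-106b-25, of which 8 were called. By 24 months the medians were -3.24, -2.29 and -2.41 in that order. By seed, the medians at 12 months were -2.97 for miR-17 (6 of 7 called), -2.33 for miR-92 (6 of 6) and -1.65 for miR-19 (1 of 2). For miR-18 only chi-miR-18a-5p reached that level, at -2.96. Over all tested entries 13.2% were called lower at 12 months. The difference between clusters or seeds was not tested, and entries of 1 cluster share a transcript and in part their reads.

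Ratios of counts within a library do not depend on the library total, and they show which miRNAs of a kind moved apart. The ratio of chi-miR-20a-5p to chi-miR-20b, miR-17-92 against miR-106a-363, was 7.27, 9.71 and 12.4 in 1-month libraries 1, 2 and 3, 48.1, 33.6 and 32.3 in 12-month libraries 3, 4 and 5, and 35.3, 29.9 and 36.5 in 24-month libraries 2, 3 and 5. That of chi-miR-17-5p to chi-miR-106a-5p was 4.01, 4.44 and 5.95 at 1 month, then 11.4, 6.51 and 8.77 at 12 months and finally 8.20, 6.58 and 10.9 at 24 months. That of chi-miR-25-3p to chi-miR-363-3p was 7.06, 7.08 and 9.52 in the 1-month goats, 24.998, 14.97 and 17.6 in the 12-month goats and 14.3, 11.5 and 18.9 in the 24-month goats. In these 3 pairs every later goat had a higher ratio than every 1-month goat, so the miR-106a-363 miRNA took a smaller part of the pair in the older glands. The miR-18 pair did not separate: chi-miR-18a-5p over chi-miR-18b-5p was 6.57, 5.13 and 9.31 at 1 month, then 14.5, 5.38 and 10.25 at 12 months and finally 7.63, 19.4 and 7.25 at 24 months. With the counts of miR-18-x added to chi-miR-18b-5p the 1-month ratios were 3.92, 3.05 and 5.39, and 12-month library 4, at 5.38, still lay among them.

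Among the entries assigned to miR-17-92, ratios also differed with age. In mammals miR-19b comes from 2 hairpins, in miR-17-92 and in miR-106a-363, so counts of chi-miR-19b-3p need not come from a single transcript. The ratio of chi-miR-19b-3p to chi-miR-17-5p was 5.41, 5.24 and 5.35 at 1 month, then 18.5, 31.3 and 22.0 at 12 months and finally 26.0, 44.4 and 16.8 at 24 months. The 1-month goats agree closely and lie far below every later goat. The ratio of chi-miR-19b-3p to chi-miR-19a was 3.33, 2.35 and 3.37 at 1 month, and between 5.28 and 6.11 in the later libraries. By contrast, the ratio of chi-miR-20a-5p to chi-miR-18a-5p overlapped, with 10.1 to 12.2 for the 1-month goats, 10.2 to 13.3 for the 12-month goats and 10.48 to 17.6 for the 24-month goats. Ratios between the arms of a hairpin were mixed. Those of miR-17 were only just apart: chi-miR-17-5p over chi-miR-17-3p was 3.12, 2.52 and 2.24 in the 1-month goats, 1.96, 0.928 and 1 in the 12-month goats and 1.29, 0.852 and 2.19 in the 24-month goats. The ratio of chi-miR-106a-5p to chi-miR-106a-3p was 8.52 to 14.1 at 1 month and 3.29 to 7 later, which separates. Those of the 2 arms of miR-93 and of miR-20a separated at 12 months but overlapped at 24 months, and those of miR-106b, miR-25, miR-92a and miR-18a overlapped between 1 month and 12 months. These ratios are descriptions with no test, and were chosen with earlier results of these data known.

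**Figure D4:**
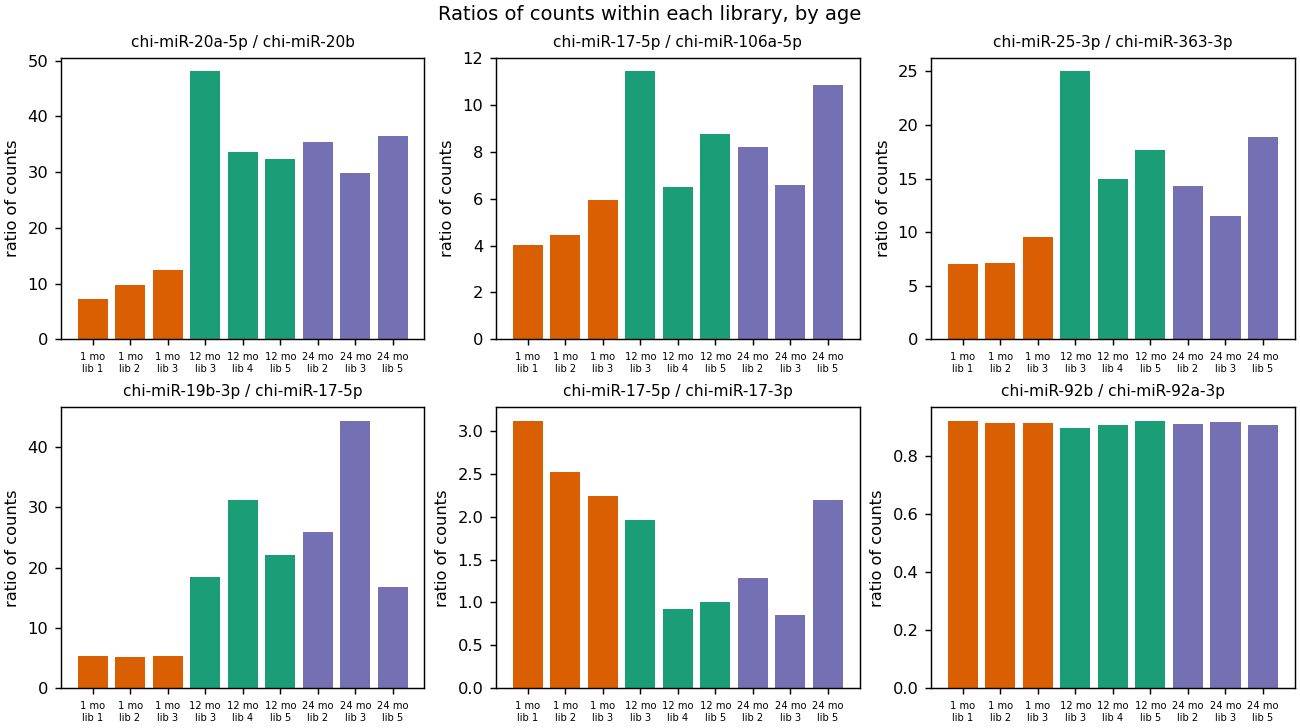
Bars give the ratio of counts of 2 miRNAs within each of the 9 libraries, coloured by age. In the panel of chi-miR-20a-5p over chi-miR-20b the 1-month bars reach 7.27, 9.71 and 12.4, and the later bars lie between 29.9 and 48.1.

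The 1-month goats varied widely among themselves. The 1-month library 2 had the highest value of the 9 libraries for each of the 34 tested entries, at 2.78 to 28.3 times the mean of 1-month libraries 1 and 3, with a median of 3.65. For 28 of the 34, libraries 1 and 3 of that age also lay above all 6 later libraries.

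Marker lists of cell types moved with the clusters. The leukocyte list (miR-142, miR-150, miR-155, miR-223, miR-146 and miR-342, 22 entries) held 3.73%, 12.7% and 5.78% of counts in 1-month libraries 1, 2 and 3, then 0.604% to 0.712% in the 12-month group and 0.477% to 0.617% in the 24-month group. Of its entries, 22, 19 and 18 had counts at 1, 12 and 24 months, and no number of the list was missing. Of its 16 tested entries, 12 fell and 0 rose by 12 months, beside 13.2% lower and 5.98% higher over all tested entries. The list of miR-181 and miR-128, known from thymocytes and lymphoid precursors (11 entries), held 4.90%, 17.6% and 3.46% at 1 month and 0.479% to 0.664% later. The totals of both lists were highest in 1-month library 2, like the clusters. Single leukocyte entries differed, here as CPM on unscaled totals in 1-month libraries 1, 2 and 3. The most abundant of those compared, miR-142-x, stood at 22475, 97592 and 37964. By contrast, chi-miR-150 (1544, 2488 and 3473) and chi-miR-223-3p (26.0, 32.3 and 761) were highest in library 3. The part of these lists in the fall of the clusters was not tested.

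The epithelial list (miR-200, miR-141, miR-429, miR-203, miR-205, miR-183, miR-96 and miR-182, 24 entries) went the other way, with 5.82%, 0.875% and 3.97% at 1 month and 10.3% to 11.9% later. Of its 22 tested entries, 5 rose and 0 fell by 12 months, beside 5.98% higher and 13.2% lower over all tested entries. The gland list (miR-148, miR-375, miR-7, miR-216 and miR-217, 18 entries) held 8.55%, 1.41% and 6.50% at 1 month and 14.2% to 17.9% later. Most of the later share was chi-miR-148a-3p, at 118359 to 139846 CPM on unscaled library totals. Of the 11 tested gland entries, 3 rose and 1 fell by 12 months, beside 5.98% higher and 13.2% lower over all tested entries. Their median log2 fold change was 0.25. Both the epithelial and the gland list are present in every library of the labelled gland, but 1-month library 2 held the least of either. Its red cell list (miR-144, miR-451 and miR-486, 10 entries) was at 0.201%, below the other 1-month libraries at 0.403% and 0.296%, and that list overlapped between 1 and 12 months. At 24 months the red cell list stood at 0.101% to 0.116%, below every 1-month library. Of its 7 tested entries 2 fell and 0 rose, beside 17.5% lower and 8.75% higher over all tested entries. The endothelial, mesenchymal and muscle lists overlapped between 1 month and each later age. Without 1-month library 2, leukocyte shares at 1 month still lay between 3.73% and 5.78%, above all later libraries.

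**Figure D5:**
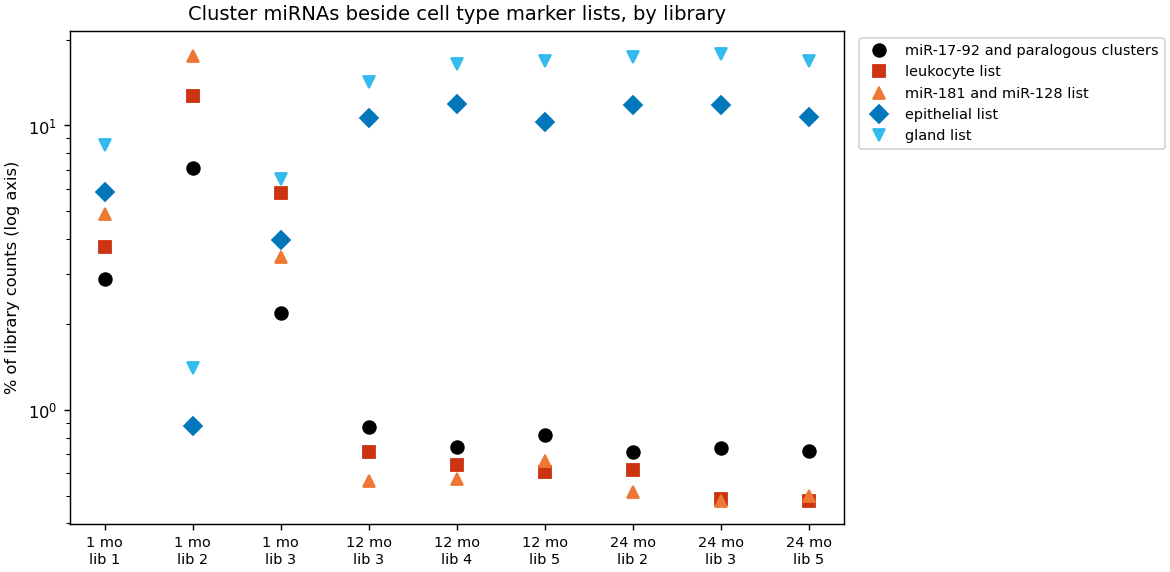
Points give, for each of the 9 libraries, the percentage of counts on the 44 cluster entries and on the cell type marker lists, on a log axis. In 1-month library 2 the clusters (7.07%) and the leukocyte list (12.7%) are at their highest and the epithelial (0.875%) and gland (1.41%) lists at their lowest.

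Other miRNAs tied to the cell cycle were followed by list, beside 13.2% of all tested entries lower and 5.98% higher at 12 months, and 17.5% and 8.75% at 24 months. Of 25 tested entries of the miR-15, miR-16, miR-195, miR-497, miR-424, miR-322 and miR-503 group, known as brakes on G1 cyclins, 7 fell and 0 rose by 12 months, and the same numbers held at 24 months. This list held 1.75%, 4.87% and 1.46% of counts in 1-month libraries 1, 2 and 3 and 0.552% to 0.932% later. Its total was thus above all later libraries at 1 month and highest in 1-month library 2. Its entries did not all move 1 way. At 12 months 12 of the 25 tested entries had a negative log2 fold change, with a median of 0.18. At 24 months 13 of the 25 did, with a median of -0.52. Of 23 let-7 and miR-98 entries, which rise with differentiation in many tissues, 1 fell and 1 rose by 12 months, and 2 fell and 4 rose by 24 months. Their share was 7.56% to 9.41% in the 1-month goats and 7.70% to 8.96% in the 12-month goats, which overlap, and 10.4% to 14.7% in the 24-month goats, which lies above both. Of 6 miR-34 and miR-449 entries 0 were called at either age, and of 7 miR-221 and miR-222 entries 0 were called at 12 months and 1 fell at 24 months. The share of miR-221 and miR-222 was 0.0756%, 0.112% and 0.102% at 1 month and 0.0266% to 0.0638% in the later libraries, which do not overlap.

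The seeds also occur outside these clusters. The miR-92 seed is carried by 5 further entries with 1.32% of all counts on that seed, and miR-32-x and miR-235-y hold most of these. The level of miR-32-x, of another gene family, was 149, 526 and 125 CPM at 1 month, then 148.1, 195.2 and 153 at 12 months and finally 158, 161 and 144.4 at 24 months. Its ages overlap, and the log2 fold change of -0.69 ± 0.51 at 12 months was not called (edgeR adjusted p = 0.333). The same seed was thus carried at 12 months by miRNAs that fell and by 1 whose change did not pass the test, and the difference between them was not tested.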

How the data were processed

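The authors deposited a table of raw counts per mature miRNA entry for the 9 libraries, with a sequence for each entry, per the file headers. FastQC and Bowtie are named without role or version, per the submitters' processing notes. Which settings, genome build and miRNA database were used is not given in the sources used here. All columns were matched to samples by name, and 0 per-sample columns were left unused.

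From these counts, the whole table was fitted with edgeR 4.0.16 in R 4.3.3 (TMM scaling, filterByExpr with minimum count 10 and minimum total 15, robust quasi-likelihood F test, all 9 libraries, 6 residual degrees of freedom). Benjamini-Hochberg adjustment ran over 937 entries, with a threshold of 0.05. Shares, ratios and intervals were computed in Python 3.11.15 with scipy 1.17.1, and figures with matplotlib 3.10.9. Scripts were tested on simulated data. Totals of 8288492 to 13277448 counts make 3 counts worth 0.226 to 0.362 CPM. Reads have no molecular identifiers, so intervals and floors cover counting error only.

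Named with values in every library were up to 4 entries per seed with the highest mean CPM, the other arm of each hairpin, and the entries with the largest and smallest log2 fold change at 12 months. Entries named outside this rule are said to be so. The entries and lists were chosen with earlier results of these data known. The cluster of each entry follows RefSeq neighbours, which place MIR92B beside MIR363, where the plan had put it outside the clusters. Replicate numbers recur across ages but belong to separate goats. Alternatives were scaling by upper quartile, by DESeq2 size factors or by library size, no filter or 10 CPM in 3 libraries, DESeq2 1.42.0, limma voom 3.58.1, only the libraries compared, a replicate block, identical sequences summed, candidates without a family name left out, and each library left out in turn.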

Additional observations from a re-analysis of the deposited data

How the results depend on the processing

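The 34 tested entries (24 of them with the 10 CPM filter) lay below 1 month at both later ages under every scaling, filter and test tried. At 12 months 29 were called lower with library size, DESeq2 size factors or upper quartile scaling, 26 with limma voom, 31 with DESeq2, 22 of 24 with the 10 CPM filter and 36 of 44 without a filter. At 24 months these alternatives gave 21 to 34. Leaving out 1 library gave 12 to 32 entries lower at 12 months, the lowest without 12-month library 4, and 20 to 31 at 24 months, the lowest without 24-month library 3. Any difference between ages was called for 24 to 32. All these counts can include entries that passed a filter through the 1-month libraries, whose calls support nothing. With 1 library left out, the median log2 fold change lay between -2.92 and -1.50 for 12 months. For 24 months it lay between -2.87 and -1.61, and both were nearest 0 without 1-month library 2. Without that library the direction reversed for miR-19-y, whose values spanned -2.94 to 0.33 at 12 months and -1.81 to 1.37 at 24 months, and for miR-19-z, which spanned -3.43 to 1.39 and -3.03 to 1.57. Between 12 and 24 months miR-93-x spanned -0.79 to 0.066, the last without 12-month library 4. The cause was not tested.

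With the replicate number as a block, 0 entries were called lower at 12 months, 9 at 24 months and 0 for any difference between ages, with 2 residual degrees of freedom. The median log2 fold change was then -2.53 at 12 months and -2.41 at 24 months, beside -2.47 and -2.53 without the block. Each number stands for separate goats at each age. Same-numbered libraries correlated at -0.198 to 0.150 over 5 pairs, differently numbered ones at -0.321 to 0.314. So few pairs cannot decide whether the numbers mark a pairing.

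Scaling by library size moved the median log2 fold change of all tested entries to -0.20 at 12 months and -0.36 at 24 months, DESeq2 size factors to -0.11 and -0.10, and upper quartile to 0.12 and 0.07. Of all entries called at 12 months 31.1% were higher, against 14.4% by library size. At 24 months 33.3% were higher, against 19.2% by library size and 46.3% by upper quartile. The 10 entries under the filter had at most 14 counts at a later age, which limits what depth can show for them.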

Other observations

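An entry with the miR-92 seed and another name, miR-235-y, also fell with age. It differs from chi-miR-92a-3p by T10C, G21C and T22A, counted from 1 at the 5′ end with the base of chi-miR-92a-3p first. Its sequence is shown because its values follow.
miR-235-y: tATTGCACtcgtcccggcctca

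It stood at 14.4, 70.2 and 10.9 CPM in 1-month libraries 1, 2 and 3, at 6.95, 2.45 and 4.94 in 12-month libraries 3, 4 and 5, and at 3.18, 2.84 and 2.53 in 24-month libraries 2, 3 and 5. The 1-month libraries lie above all later ones. The log2 fold change was -2.74 ± 0.72 at 12 months (edgeR adjusted p = 0.0241) and -3.47 ± 0.74 at 24 months (adjusted p = 0.00879). The entry miR-92-x, a 5p sequence not assigned to a cluster, had 14, 85 and 8 counts in the 1-month goats, 3, 7 and 4 in the 12-month goats and 2, 0 and 2 in the 24-month goats, and was not tested.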
